A study of Mus musculus with 31 samples.

Results

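The glucocorticoid receptor gene Nr3c1 and 7 of its classical target genes, Fkbp5, Tsc22d3, Klf9, Sgk1, Anxa1, Errfi1 and Ddit4, were followed through Ly6C-high monocytes of healthy blood, of the blood of tumor-bearing mice and of tumors. The members were taken by symbol from the deposited table of gene counts, and all 8 were found among its 24411 entries. All 8 passed the filter on low counts, which left 12337 genes for testing. RNA-seq had been made from 9 libraries, 3 per group, and the other 22 samples of the series, which profile chromatin, were not analysed here. Mice were of the C57BL/6J strain. The healthy blood group came from mice with no tumor, and the LLC blood and LLC tumor groups came from mice carrying a subcutaneous tumor of LLC cells, the Lewis lung carcinoma line of mice. Sorting had kept cells with CD11b and high Ly6C and without Ly6G or MHC-II. No group carried a genetic change or received a steroid, as far as the labels say, and age is not given in the sources used here. The labels number the libraries as replicates without saying whether each came from its own mouse, so p-values measure the spread between these libraries, which may be in part technical.

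The glucocorticoid receptor is a ligand-activated transcription factor. Without hormone it waits in the cytosol in a complex with the chaperone HSP90 and immunophilins such as FKBP5 (FKBP51) and FKBP4 (FKBP52). After binding corticosterone, the main glucocorticoid of mice, it enters the nucleus, binds palindromic glucocorticoid response elements and raises genes that dampen inflammation, and it also restrains NF-kB and AP-1 at inflammatory genes. In monocytes and macrophages it is known for lowering cytokine output and for raising phagocytic and regulatory genes.

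Promoter sequences from RefSeq (GRCm38.p6) were matched by symbol for 7 of the 8 genes. They gave 15 promoters of 300 bases, from 250 bases before to 50 bases after each annotated start, of which 6 belonged to Sgk1, 3 to Tsc22d3 and 2 to Errfi1. The full palindrome, AGAACA and TGTTCT with any 3 bases between them, is the consensus element of the receptor and was searched on both strands. It was present in 3 of 32851 promoters of the table (0.00913%), and one of these belonged to Sgk1. The Sgk1 stretch below is shown because it holds that match, in capitals, from 189 to 175 bases before the start (chr10:21993640-21993889, plus strand).
Sgk1: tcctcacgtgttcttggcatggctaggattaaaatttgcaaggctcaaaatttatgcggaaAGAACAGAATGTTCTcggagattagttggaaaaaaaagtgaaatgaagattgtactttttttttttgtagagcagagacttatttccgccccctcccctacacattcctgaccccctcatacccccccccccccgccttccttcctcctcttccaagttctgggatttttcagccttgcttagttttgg
The looser form, GNACA and TGTNC with any 3 bases between them, which includes every full palindrome, occurred in 0.475% of promoters and in the same Sgk1 promoter alone among the 15. The hexamer AGAACA, which is part of the full palindrome, occurred in 19.0% of promoters and in 4 of the 15, those of Sgk1 and Tsc22d3. These are matches of letters in a proximal window and are not evidence of binding. The counts are per gene and do not say which of the 6 Sgk1 starts was used.

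The short sequence ACGTG, the core of the hypoxia response element and of some E-boxes, was present in 19.6% of all promoters and in 5 of the 15, 1 each of Sgk1, Errfi1, Ddit4, Klf9 and Fkbp5. Counted by gene, it was in at least 1 promoter of 21.8% of all genes. The stretches of the 4 genes other than Sgk1 are printed to show where the match lies, with the first match in capitals, and whether it bears on their levels was not tested. Some matches are read on the opposite strand as CACGT. The stretches lie at chr4:150854965-150855069 (Errfi1, plus strand), chr10:59951903-59952007 (Ddit4, minus strand), chr19:23141121-23141225 (Klf9, plus strand) and chr17:28486264-28486368 (Fkbp5, minus strand).
Errfi1: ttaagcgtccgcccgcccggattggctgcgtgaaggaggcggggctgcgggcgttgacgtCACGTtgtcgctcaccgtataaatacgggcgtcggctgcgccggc
Ddit4: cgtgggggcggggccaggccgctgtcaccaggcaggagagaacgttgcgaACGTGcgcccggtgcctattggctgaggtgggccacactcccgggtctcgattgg
Klf9: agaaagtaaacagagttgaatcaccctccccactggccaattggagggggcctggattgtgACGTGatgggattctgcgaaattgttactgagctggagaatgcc
Fkbp5: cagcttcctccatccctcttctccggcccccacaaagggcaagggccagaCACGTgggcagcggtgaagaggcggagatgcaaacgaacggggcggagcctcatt
The match in Errfi1 began 45 bases before the start and overlapped the cyclic AMP response element TGACGTCA, a palindrome found in 1.79% of promoters, which was searched after the Errfi1 sequence had been seen. The match in Klf9 began 44 bases, that in Ddit4 187 bases and that in Fkbp5 169 bases before the start. The promoters of Tsc22d3 and Anxa1 held no ACGTG in these windows.

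Library depth was 10457492 to 20706412 counts, which puts 3 counts at 0.145 to 0.287 CPM (counts scaled to a common library total). Levels are given in CPM, with all entries of the count table in the total. Overlap of groups is judged on these values, before the scaling used in the tests. Transcripts of both positive sorting markers were present in all libraries. The CD11b gene Itgam stood at 921.6 ± 28.1 CPM in healthy blood, 1439 ± 88.7 CPM in LLC blood and 3405 ± 278 CPM in LLC tumor (SD, n = 3), and Ly6c2, which encodes Ly6C, at 1669 ± 85.4, 1152 ± 74.3 and 357.6 ± 103 CPM in the same order. MHC class II genes, whose surface product the sort excluded, summed to 1041 to 1659 CPM in healthy blood, 409.5 to 634.8 CPM in LLC blood and 314.6 to 619.5 CPM in LLC tumor, and 4 of 4 were lower in LLC blood than in the healthy group. Libraries were not free of other cells' RNA. From healthy blood to LLC blood 7 of 7 tested T cell markers and 8 of 8 NK cell markers fell, where 9.61% of all genes were lower. Fibroblast markers summed to 941 to 3949 CPM in LLC tumor. LLC tumor 1 stood apart from the other tumor libraries, with a Pearson correlation across genes of 0.967 and 0.972 to them against 0.993 between those. It also had the lowest scaling factor of TMM, edgeR's trimmed-mean normalization, at 0.798 against 0.968 to 1.07 elsewhere. In bulk samples, fewer cells of a type and less RNA per cell cannot be told apart.

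**Figure D1:**
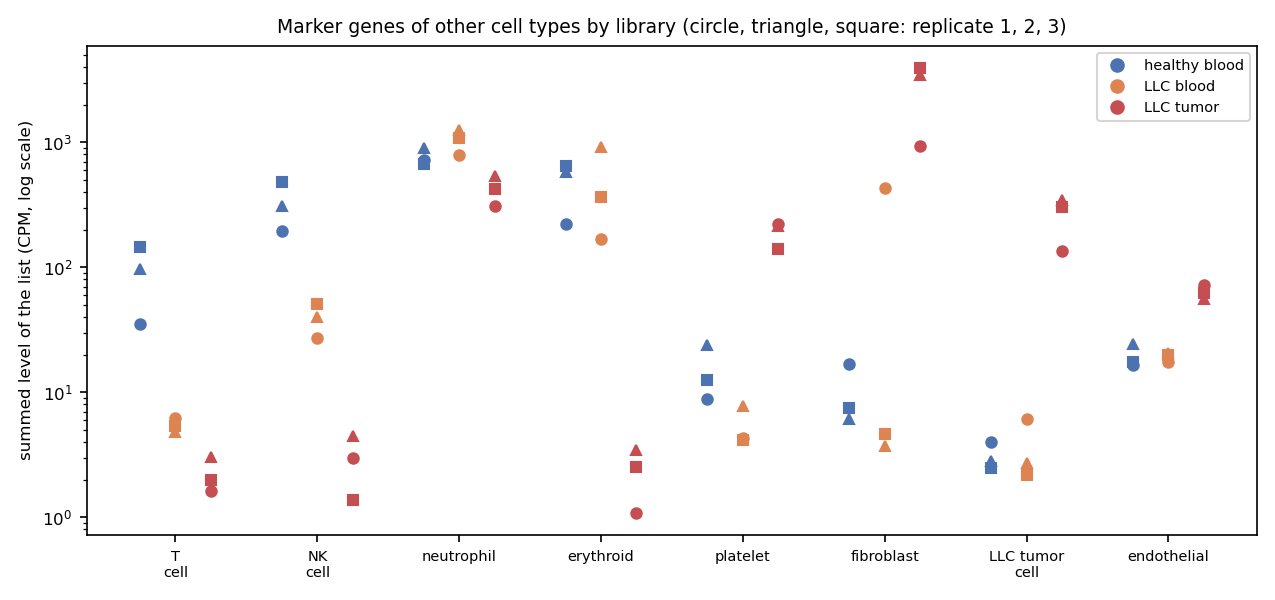
Summed levels of marker genes in each library, in CPM on a log scale, for 8 cell types and 3 groups; each symbol is 1 library. The sums of T and NK cell markers were highest in healthy blood, and those of fibroblast, LLC tumor cell and platelet markers in LLC tumor. Of 4 tested platelet markers, Ppbp and Pf4 were called higher from LLC blood to tumor, Tubb1 lower and Itga2b not called (edgeR). Against healthy blood, Itga2b and Tubb1 were lower in tumor.

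The members split in the tumor. From LLC blood to LLC tumor all 8 were called (edgeR quasi-likelihood test, Benjamini-Hochberg adjusted p under 0.05 over all genes), against 61.3% of all genes tested. Nr3c1, Fkbp5, Klf9, Sgk1, Errfi1 and Ddit4 were higher, where 29.6% of all genes were called higher, and Tsc22d3 and Anxa1 were lower, where 31.7% were. The differences ranged from a 51.1-fold rise of Errfi1 to a 2.92-fold fall of Tsc22d3, and the groups did not overlap for 6 of the 8 genes, against 68.3% of all genes. Between LLC blood and healthy blood 2 of 8 were called, a share near the 23.6% of all genes, Anxa1 higher, where 14.0% of all genes were, and Ddit4 lower, where 9.61% were. Groups did not overlap there for 4 of the 8, against 51.4% of all genes.

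**Figure D2:**
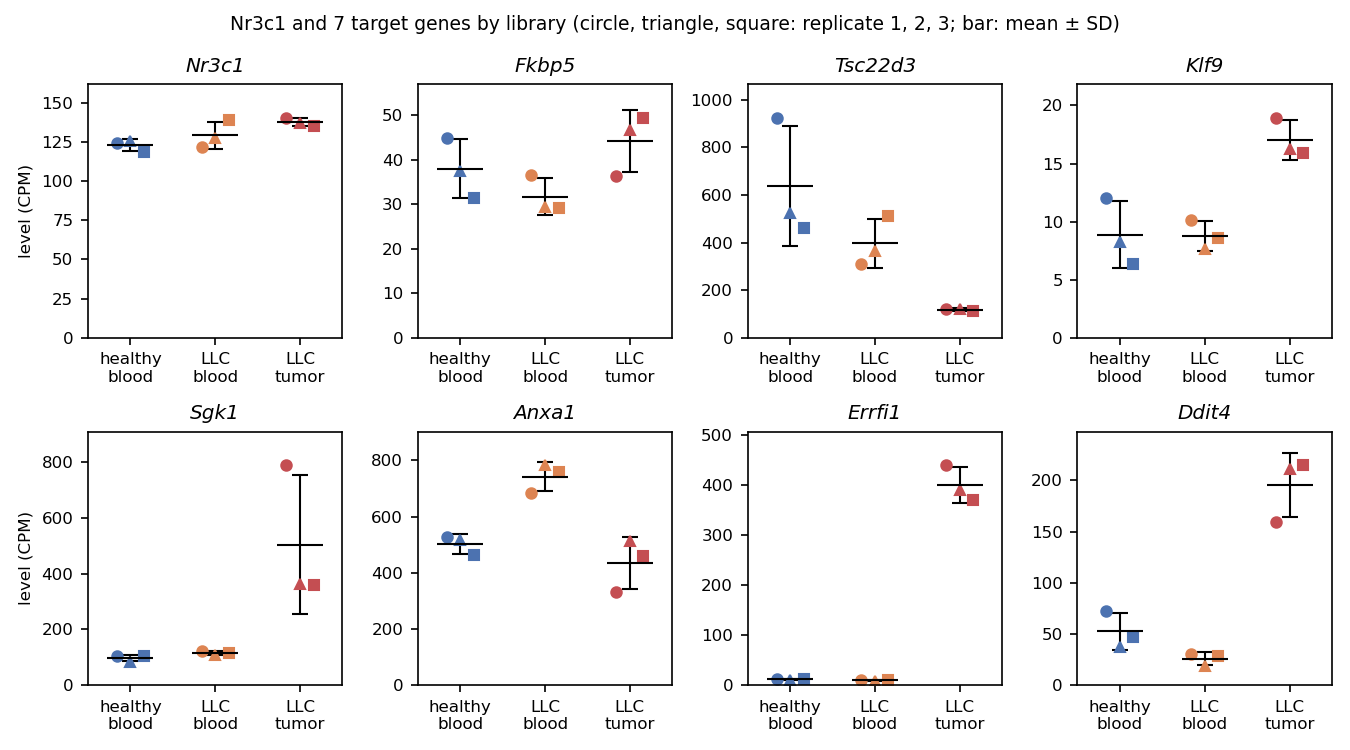
Level of each gene in CPM, from 0, in the 9 libraries of 3 groups; symbols are replicates 1 to 3, and bars are the mean and SD. Nr3c1 lay between 118 and 141 CPM everywhere, Errfi1, Ddit4, Sgk1 and Klf9 were highest in LLC tumor without overlap, and Tsc22d3 was lowest there.

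The receptor itself was the most even of the 8 genes. Nr3c1 (ENSMUSG00000024431) was at 125, 125 and 118 CPM in healthy blood 1 to 3, at 122, 127 and 139 CPM in LLC blood and at 141, 137 and 135 CPM in LLC tumor. Its LLC blood libraries overlapped both other groups, and its tumor libraries lay above every healthy blood library. Between LLC blood and healthy blood the log2 fold change was 0.05 ± 0.10 (SE), with a 95% interval of -0.18 to 0.28 and an adjusted p of 0.775 (edgeR). From LLC blood to LLC tumor it was 0.30 ± 0.10, a 1.23-fold rise (adjusted p 0.0306, edgeR). That call depended on scaling: with library totals only the log2 fold change was 0.09 (adjusted p 0.248), and it was also lost with no filter on low counts (0.23, adjusted p 0.0849) and without healthy blood 1, healthy blood 3, LLC blood 1 or LLC blood 2. After TMM scaling Nr3c1 stood at 176 CPM in LLC tumor 1 and at 137 and 140 CPM in LLC tumor 2 and 3. On that scale LLC blood 1 to 3 were at 116, 119 and 133 CPM, without overlap with the tumor libraries. Against healthy blood the tumor libraries were higher by 0.35 ± 0.10 (adjusted p 0.0144, edgeR), a call lost without healthy blood 3. The mineralocorticoid receptor gene Nr3c2, whose product binds the same hormones and DNA element, had at most 2 counts in any library.

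Fkbp5 encodes the immunophilin FKBP51, which lowers the receptor's affinity for hormone and is itself induced by it, a short feedback loop. Fkbp5 (ENSMUSG00000024222) was at 44.8, 37.6 and 31.5 CPM in healthy blood, 36.5, 29.3 and 29.2 CPM in LLC blood and 36.5, 46.7 and 49.5 CPM in LLC tumor. Tumor and LLC blood overlapped through LLC tumor 1. After TMM scaling they did not, at 27.5 to 34.7 CPM in LLC blood and 45.7 to 51.1 CPM in tumor. The log2 fold change from LLC blood to tumor was 0.67 ± 0.14 (SE; 1.60-fold, adjusted p 0.00239, edgeR), and between LLC blood and healthy blood it was -0.29 ± 0.14 with an interval of -0.61 to 0.03 (adjusted p 0.168, edgeR). Limma-voom called that blood difference (-0.33, adjusted p 0.0247). Against healthy blood the tumor value was 0.38 ± 0.14 (adjusted p 0.0342, edgeR), a call lost in 11 of 19 alternatives, among them upper-quartile factors, library totals only and leaving out healthy blood 2, healthy blood 3, LLC blood 2, LLC tumor 2 or LLC tumor 3.

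The genes of the receptor's chaperone machinery rose in the tumor. Of 11 tested chaperone genes 9 were called higher and 0 lower from LLC blood to tumor, where 29.6% and 31.7% of all genes were. Their median log2 fold change was 0.66 against -0.03 over all genes. None was lower at an unadjusted p under 0.05 with edgeR, or with DESeq2 or limma-voom after adjustment, and the 2 genes not called were the immunophilins Fkbp4 and Ppid. Hsp90aa1, the stress-inducible HSP90, was at 139, 127 and 134 CPM in LLC blood and at 1122, 591 and 689 CPM in LLC tumor (log2 fold change 2.84 ± 0.29 SE, adjusted p 2.95e-05, edgeR). The constitutive form Hsp90ab1 went from 709.3 ± 18.8 to 1346 ± 159 CPM, or 1.12 ± 0.10 SE on the log2 scale (adjusted p 1.38e-05, edgeR). In blood 0 chaperone genes were higher with edgeR, at an unadjusted p under 0.05, or with DESeq2 and limma-voom. With edgeR 3 were lower (27.3% called, against 23.6% of all genes, with 9.61% lower). One of them, Ptges3, encodes the HSP90 co-chaperone p23 and went from 102.4 ± 10.3 CPM in healthy blood to 77.7 ± 1.79 CPM in LLC blood (log2 fold change -0.42 ± 0.08 SE, adjusted p 0.00495, edgeR).

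Cofactors that the receptor recruits moved in blood. Of 12 cofactor genes 8 were called higher and 0 lower in LLC blood against healthy blood, where 14.0% of all genes were higher, and the list median was 0.49 against -0.01 over all genes. None was lower at an unadjusted p under 0.05 or with DESeq2, and limma-voom called 1 lower. Nrip1, a corepressor of nuclear receptors, was at 5.86, 6.20 and 4.05 CPM in healthy blood and at 21.9, 26.4 and 24.0 CPM in LLC blood, a log2 fold change of 2.14 ± 0.17 SE (adjusted p 6.79e-05, edgeR). Ep300, a histone acetyltransferase, rose by 0.77 ± 0.10 (adjusted p 0.00113, edgeR), and the corepressor Ncor1 by 0.71 ± 0.07 (adjusted p 0.000345, edgeR). In the step from LLC blood to tumor 1 cofactor gene was called higher and 6 lower (58.3% called, near the 61.3% of all genes). Ncoa1, the coactivator SRC-1, fell from 130.3 ± 3.54 to 59.2 ± 1.47 CPM, or -0.94 ± 0.09 SE on the log2 scale (adjusted p 1.51e-05, edgeR), and Ep300 fell by 0.67 on the log2 scale (adjusted p 0.000404, edgeR). The blood and tumor values share the LLC blood libraries.

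Local hormone supply depends on 11β-hydroxysteroid dehydrogenase 1, encoded by Hsd11b1, which regenerates active glucocorticoid, and on H6pd, which provides its NADPH. Hsd11b1 was at 16.6, 18.8 and 21.3 CPM in healthy blood, 18.9, 24.1 and 23.9 CPM in LLC blood and 15.5, 18.0 and 17.5 CPM in LLC tumor. Neither step was called for it in the main fit (log2 fold change 0.22 ± 0.13 SE, adjusted p 0.242 in blood, and -0.20 ± 0.13 SE, adjusted p 0.203 from LLC blood to tumor, edgeR). Limma-voom called both (adjusted p 0.0305 and 0.0292). EdgeR with library totals only called the step to the tumor (-0.39, adjusted p 0.0321). H6pd went from 92.7 ± 5.48 CPM in healthy blood to 127.7 ± 3.73 in LLC blood and 52.1 ± 11.5 in tumor, with log2 fold changes of 0.43 ± 0.09 SE (adjusted p 0.00754, edgeR) and -1.11 ± 0.09 SE (adjusted p 6.96e-06, edgeR). The first of these calls was lost without healthy blood 2 (adjusted p 0.0617). Abcb1a, a P-glycoprotein gene whose product exports steroids, rose from 10.7 ± 1.79 to 40.9 ± 2.79 CPM from LLC blood to tumor (log2 fold change 2.13 ± 0.17 SE, adjusted p 5.31e-06, edgeR).

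Tsc22d3 fell furthest in the tumor. It encodes GILZ (glucocorticoid-induced leucine zipper), which binds NF-kB and AP-1 subunits and is among the best known mediators of the hormone's anti-inflammatory action. Tsc22d3 (ENSMUSG00000031431) was at 926, 524 and 460 CPM in healthy blood 1 to 3, at 312, 366 and 513 CPM in LLC blood and at 122, 121 and 111 CPM in LLC tumor. Every tumor library lay below every blood library, while LLC blood 3 overlapped healthy blood and healthy blood 1 stood above all others. The log2 fold change from LLC blood to tumor was -1.54 ± 0.28 (SE; 2.92-fold lower, adjusted p 0.00111, edgeR), and from healthy blood to tumor it was -2.25 ± 0.29 (4.76-fold lower, adjusted p 0.000109, edgeR). Both were called in all 19 alternatives. The difference between LLC blood and healthy blood was -0.71 ± 0.28 and did not pass (95% interval -1.33 to -0.08, adjusted p 0.0958, edgeR). It was -0.33 without healthy blood 1 (adjusted p 0.349), and it was called with DESeq2 (adjusted p 0.0335) and without LLC tumor 1 (adjusted p 0.0467).

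Lymphocytes also express Tsc22d3. T cell markers summed to 35.4 to 145 CPM in healthy blood, 4.77 to 6.22 CPM in LLC blood and 1.63 to 3.01 CPM in LLC tumor. NK cell markers summed to 195 to 478, 27.3 to 50.4 and 1.38 to 4.43 CPM, with Klre1 at 0 in every tumor library. B cell markers summed to 17.6 to 184, 10.5 to 14.9 and 2.53 to 4.43 CPM, with 5 of 8 at 0 in every tumor library. Erythroid (red cell) markers summed to 222 to 650, 168 to 920 and 1.08 to 3.46 CPM. Dendritic cell markers summed to 89.0 to 106, 33.1 to 52.3 and 6.95 to 10.3 CPM. Between the blood groups, where Tsc22d3 was not called, 7 of 7 T cell and 8 of 8 NK cell markers were lower. So were 5 of 6 dendritic cell, 1 of 2 B cell and 1 of 5 erythroid markers, against 9.61% of all genes. In the step to the tumor, where Tsc22d3 was called lower, 1 of 7 T cell markers (Lck) and 8 of 8 NK cell markers were lower (edgeR). With limma-voom these were 0 of 7 and 7 of 8. Lower there with edgeR were also 5 of 5 erythroid, 3 of 6 dendritic cell and 1 of 2 B cell markers, against 31.7% of all genes. The dendritic cell marker Clec9a was higher. Limma-voom called 4 of 5 erythroid markers lower, and 1 B cell marker higher and 0 lower. Healthy blood 1, which had the highest Tsc22d3, had the lowest T and NK cell sums of the healthy blood libraries (35.4 and 195 CPM). The part of these cells in the difference was not tested. Of the other TSC22 family genes, Tsc22d1 went the other way in the tumor, from 15.7 ± 2.42 to 34.6 ± 2.80 CPM, or 1.34 ± 0.19 SE on the log2 scale (adjusted p 0.000225, edgeR), after a fall from healthy blood to LLC blood (-0.86 ± 0.19 SE, adjusted p 0.0106, edgeR). Tsc22d4 fell between the blood groups (-0.44 ± 0.09 SE, adjusted p 0.00846, edgeR) and was not called from LLC blood to tumor.

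**Figure D3:**
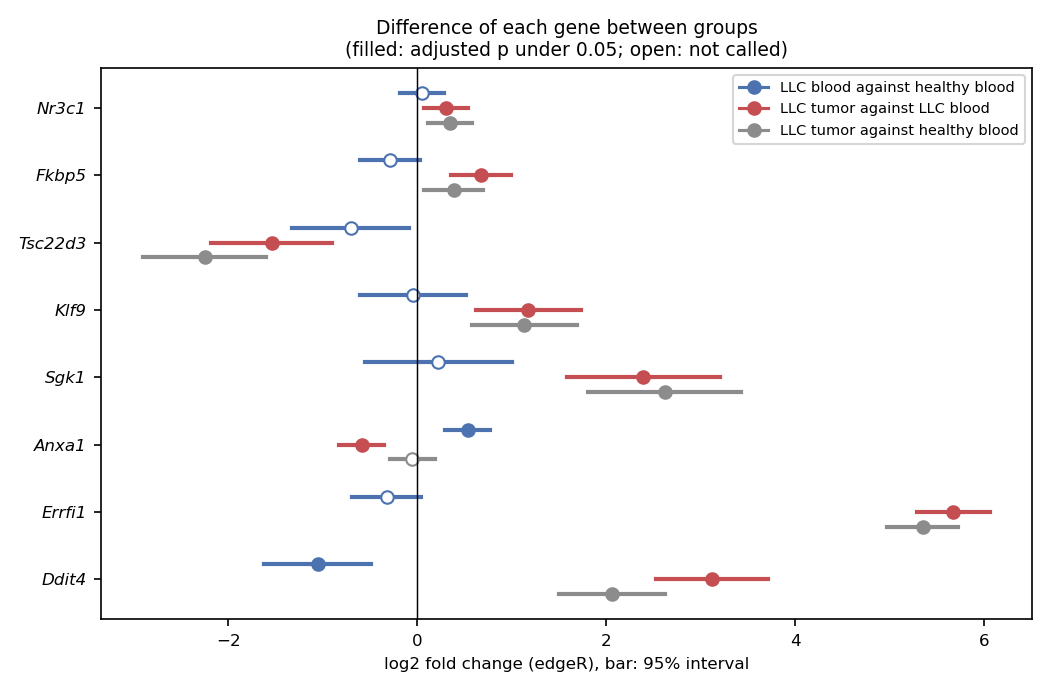
Log2 fold change of each gene (x axis, edgeR) in 3 comparisons, with 95% intervals; filled circles passed an adjusted p of 0.05. Values from LLC blood to tumor ran from -1.54 (Tsc22d3) to 5.67 (Errfi1), while in blood only Anxa1 and Ddit4 passed.

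Klf9 encodes a Krüppel-like factor that is induced early by glucocorticoids and by thyroid hormone and represses transcription. Klf9 (ENSMUSG00000033863) was at 12.0, 8.23 and 6.38 CPM in healthy blood, 10.1, 7.61 and 8.55 CPM in LLC blood and 19.0, 16.2 and 15.9 CPM in LLC tumor. The blood groups overlapped and every tumor library was above them. From LLC blood to tumor the log2 fold change was 1.18 ± 0.25 (SE; 2.26-fold, adjusted p 0.00254, edgeR), and between LLC blood and healthy blood it was -0.04 ± 0.25 with an interval of -0.61 to 0.52 (adjusted p 0.919, edgeR).

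Sgk1 encodes a serum- and glucocorticoid-induced kinase related to AKT, which acts on ion channels, on FOXO factors and on NDRG1. Sgk1 (ENSMUSG00000019970) was at 104, 84.0 and 103 CPM in healthy blood, 122, 108 and 115 CPM in LLC blood and 791, 362 and 358 CPM in LLC tumor. The blood groups did not overlap but lay close, and all tumor libraries were far above both, LLC tumor 1 most of all. From LLC blood to tumor the log2 fold change was 2.39 ± 0.36 (SE; 5.26-fold, adjusted p 0.000320, edgeR), and without LLC tumor 1 it was 1.77 (adjusted p 5.10e-07). Between LLC blood and healthy blood it was 0.22 ± 0.34 with an interval of -0.55 to 1.00 (adjusted p 0.684, edgeR). All counts of the 8 members were whole within 0.02. The related kinase gene Sgk3 fell from 218.0 ± 6.18 to 90.2 ± 4.96 CPM over the same step (log2 fold change -1.06 ± 0.12 SE, adjusted p 4.52e-05, edgeR), and Ndrg1, whose product SGK1 phosphorylates and which is also a hypoxia target, rose from 174.5 ± 13.96 to 636.4 ± 63.4 CPM (2.09 ± 0.15 SE, adjusted p 3.88e-06, edgeR).

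Errfi1 had the largest change of the 8. It encodes MIG6, an inhibitor of EGF receptor family kinases that is induced by glucocorticoids and by growth factor signals. Errfi1 (ENSMUSG00000028967) was at 11.4, 10.3 and 11.9 CPM in healthy blood, 9.37, 8.44 and 9.51 CPM in LLC blood and 441, 391 and 371 CPM in LLC tumor. All LLC blood libraries were slightly below all healthy blood libraries, and the tumor libraries were far above both. The log2 fold change was 5.67 ± 0.17 (SE; 51.1-fold, adjusted p 7.49e-08, edgeR) from LLC blood to tumor and -0.32 ± 0.16 between LLC blood and healthy blood (interval -0.69 to 0.04, adjusted p 0.182, edgeR). The blood difference was called without LLC tumor 1 (-0.38, adjusted p 0.00894). Of 6 tested EGF receptor family and ligand genes, 5 were higher and 1 was lower from LLC blood to tumor. Of all genes, 29.6% were called higher there and 31.7% lower. The ligand gene Hbegf had no more than 3 counts in each LLC blood library. It reached 27.9 ± 3.61 CPM in the tumor group, which is at least 131-fold higher than a floor of 3 counts per library.

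Ddit4 encodes REDD1, which restrains the growth kinase mTORC1 and is induced by glucocorticoids, by low oxygen and by the integrated stress response. Ddit4 (ENSMUSG00000020108) was at 72.7, 37.2 and 47.3 CPM in healthy blood, 30.4, 18.3 and 28.3 CPM in LLC blood and 160, 211 and 215 CPM in LLC tumor. The 3 groups did not overlap, with LLC blood lowest and tumor highest. The log2 fold change was -1.06 ± 0.25 (SE; 2.08-fold lower, adjusted p 0.0155, edgeR) in LLC blood against healthy blood and 3.12 ± 0.26 (8.68-fold, adjusted p 8.88e-06, edgeR) from LLC blood to tumor. The blood call was lost without LLC blood 2 (-0.86, adjusted p 0.0594), and the value was -0.75 without healthy blood 1 (adjusted p 0.0442). Among the other 11 tested genes of the TOR pathway, 3 were higher and 2 lower from LLC blood to tumor. That is 45.5% called, below the 61.3% of all genes. Sesn2, a stress-induced inhibitor of the same kinase complex, rose from 21.2 ± 1.38 to 54.9 ± 1.62 CPM, or 1.58 ± 0.14 SE on the log2 scale (adjusted p 1.36e-05, edgeR), while its paralog Sesn1 fell by 0.84 (adjusted p 0.000300, edgeR).

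Anxa1 moved up in blood and down in the tumor. It encodes annexin A1, a calcium-dependent phospholipid-binding protein that is released by monocytes and neutrophils, signals through formyl peptide receptors and limits leukocyte recruitment. Anxa1 (ENSMUSG00000024659) was at 528, 516 and 463 CPM in healthy blood, 684, 785 and 757 CPM in LLC blood and 332, 514 and 460 CPM in LLC tumor. LLC blood lay above both other groups without overlap, and tumor overlapped healthy blood. The log2 fold change was 0.54 ± 0.11 (SE; 1.45-fold, adjusted p 0.00669, edgeR) in LLC blood against healthy blood and -0.59 ± 0.11 (adjusted p 0.000996, edgeR) from LLC blood to tumor. Both were called in all 19 alternatives. From healthy blood to tumor it was -0.05 ± 0.11, with an interval of -0.29 to 0.19 (adjusted p 0.685, edgeR).

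Neutrophils also express Anxa1, and the sort had been set to leave out cells with Ly6G, a neutrophil surface marker. The 10 neutrophil markers in the table summed to 674 to 901 CPM in healthy blood, 786 to 1248 CPM in LLC blood and 306 to 535 CPM in LLC tumor. Of these 2, Ltf and Mmp8, were called higher in LLC blood, where 14.0% of all genes were. The other 8 were not called, among them S100a8, S100a9, Csf3r and Cxcr2. In the tumor 4 of 10 were called lower than in LLC blood, where 31.7% of all genes were, and none was at 0 throughout a group. LLC tumor 1 had both the lowest neutrophil sum (306 CPM) and the lowest Anxa1 of the tumor libraries. Their part in the result was not tested. From LLC blood to tumor both named receptors of annexin A1, Fpr1 and Fpr2, differed from it in direction, and in blood the called difference was that of Fpr2. Fpr2 was at 53.0, 59.9 and 51.9 CPM in healthy blood, 25.1 ± 1.78 CPM (SD, n = 3) in LLC blood and 77.5, 40.0 and 48.5 CPM in tumor. Its log2 fold changes were -1.16 ± 0.28 SE (adjusted p 0.0152, edgeR) in blood and 1.39 ± 0.28 SE (adjusted p 0.00186, edgeR) from LLC blood to tumor, and the first call was lost without LLC blood 2 or LLC blood 3. Fpr1 rose from 2.54 ± 1.08 to 16.9 ± 2.01 CPM in the tumor (log2 fold change 2.93 ± 0.32 SE, adjusted p 4.50e-05, edgeR). Between LLC blood and healthy blood it was not called (-0.52 ± 0.32 SE, adjusted p 0.273, edgeR). Of 11 tested annexin, S100 and formyl peptide receptor genes, 9 were higher and 1, Anxa6, was lower from LLC blood to tumor (Anxa6 -1.05 ± 0.09 SE, adjusted p 8.45e-06, edgeR). Of all genes, 29.6% were called higher there and 31.7% lower.

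Other genes known to be induced by glucocorticoids went in both directions. Of 27 tested, 16 were higher and 7 lower from LLC blood to tumor (85.2% called, against 61.3% of all genes, with 29.6% higher and 31.7% lower), with a median log2 fold change of 2.08 against -0.03 over all genes. Per1, a clock gene with a receptor site, was at 40.1, 37.7 and 53.4 CPM in LLC blood and at 170, 151 and 159 CPM in tumor (log2 fold change 2.08 ± 0.37 SE, adjusted p 0.00101, edgeR). Dusp1, a phosphatase that switches off MAP kinases, rose from 107.8 ± 80.7 to 1719 ± 236 CPM (4.22 ± 0.53 SE, adjusted p 0.000110, edgeR; 5.02 without LLC blood 1). Thbs1, the matrix protein thrombospondin 1, went from 201, 101 and 173 CPM to 24854, 23644 and 24772 CPM (7.48 ± 0.36 SE, adjusted p 4.17e-07, edgeR). Il1r2, a decoy receptor for interleukin 1, rose by 5.29 ± 0.26 (adjusted p 4.18e-07, edgeR), and Mertk, a receptor for apoptotic cells, by 4.76 ± 0.26 (adjusted p 7.23e-07, edgeR). The 7 that were lower, as Tsc22d3 was, were Cebpd, Txnip, Zbtb16, Bcl6, Sesn1, Lcn2 and Ccnd3.

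In blood the same list had 3 genes higher and 5 lower of 27 tested (29.6%, against 23.6% of all genes), with a median of -0.30, or -0.26 with the 2 genes at the floor in 1 group set to their bound. Txnip, a sugar-uptake inhibitor and classical hormone target, was at 1114 ± 159 CPM in healthy blood and 662.9 ± 83.6 CPM in LLC blood (log2 fold change -0.77 ± 0.24 SE, adjusted p 0.0435, edgeR), and leaving out any of the 6 blood libraries ended that call. Cebpb, a myeloid transcription factor, fell from 350.5 ± 25.6 to 249.2 ± 10.03 CPM (-0.52 ± 0.10 SE, adjusted p 0.00612, edgeR). Lcn2, a neutrophil granule protein, rose from 5.88 ± 3.26 to 66.2 ± 26.6 CPM (3.46 ± 0.47 SE, adjusted p 0.00123, edgeR). Per1 was at 141, 58.2 and 47.7 CPM in healthy blood, so healthy blood 1 stood above the other libraries there as it did for Tsc22d3, and its difference was not called (-0.93 ± 0.37 SE, adjusted p 0.0982, edgeR).

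**Figure D4:**
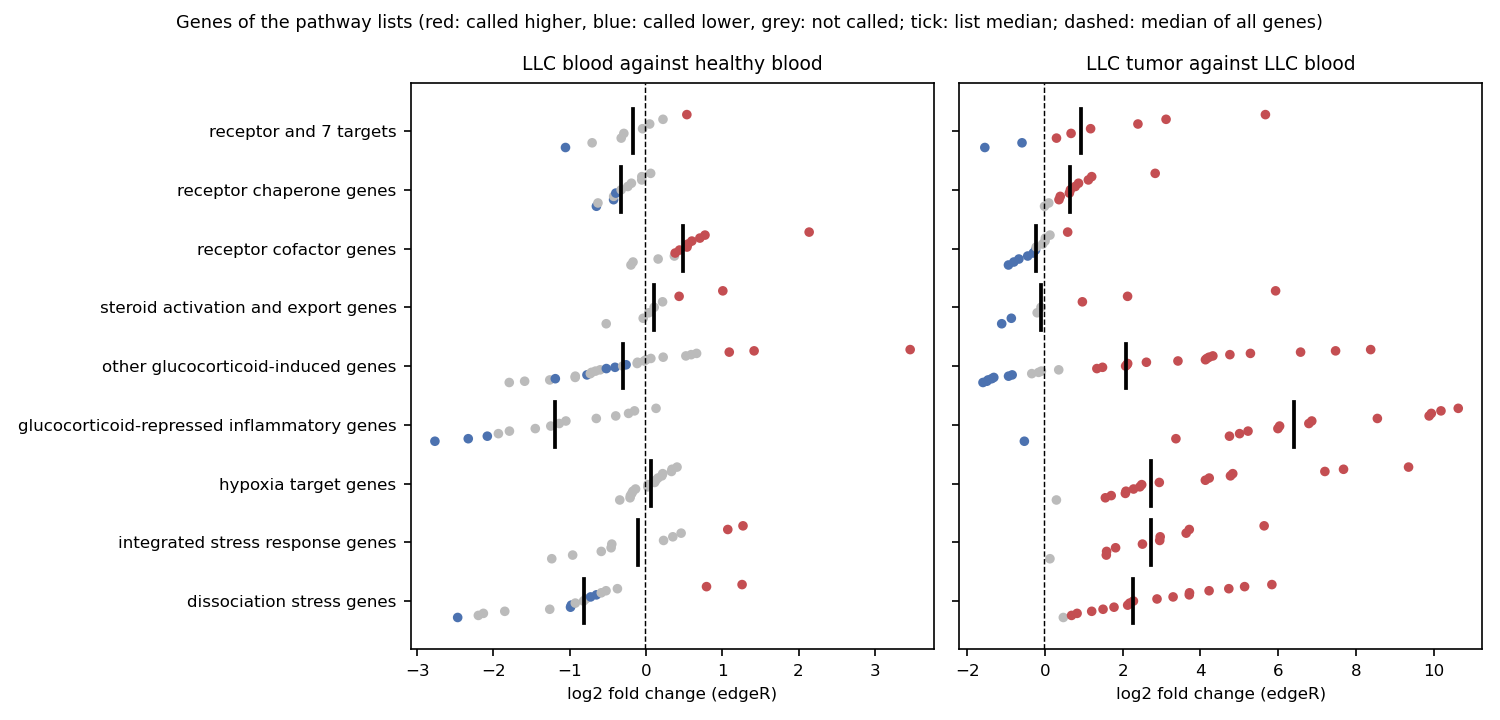
Log2 fold changes (x axis, edgeR) of the tested genes of each list in the blood comparison and in the step from LLC blood to LLC tumor; red and blue points passed the test, ticks are list medians and the dashed line is the median of all genes. In the tumor panel the medians of other induced genes (2.08), repressed inflammatory genes (6.42) and hypoxia targets (2.72) lie to the right of the dashed line at -0.03.

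Inflammatory genes that the receptor is known to repress rose in the tumor. Of 14 tested, 13 were higher and 1, Icam1, was lower, where 29.6% and 31.7% of all genes were. The median was 6.42, or 6.02 with the 2 genes at the floor in LLC blood set to their bound. Ptgs2, the inducible cyclooxygenase, went from 2.48 ± 3.00 to 1746 ± 276 CPM, or 9.89 ± 0.70 SE on the log2 scale (adjusted p 3.11e-06, edgeR), and 11.30 without LLC blood 1. With edgeR, 3 of the 14 were lower and 0 higher in LLC blood than in healthy blood. That is 21.4% called, near the 23.6% of all genes, and 9.61% of all genes were lower. None was higher at an unadjusted p under 0.05, with DESeq2 or with limma-voom. The list median was -1.19. It was -1.14 with the 1 gene at the floor in 1 group set to its bound, leaving out 1 at the floor in both. Among the 3 lower genes, Cxcl10, an interferon-induced chemokine, fell from 29.98 ± 1.47 to 4.62 ± 1.64 CPM (-2.77 ± 0.67 SE, adjusted p 0.0164, edgeR), a call lost without LLC blood 2 or LLC blood 3.

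Other programs known to induce members of the set rose in the tumor with them. Of all genes tested, 29.6% were called higher and 31.7% lower from LLC blood to tumor, and 23.6% were called in blood. Of 16 hypoxia targets 15 were higher and 0 lower from LLC blood to tumor, with a median of 2.72 (0 lower at an unadjusted p under 0.05, with DESeq2 or with limma-voom), and Vegfa rose by 9.36 ± 0.61 (10.61 without LLC blood 1) and Slc2a1, a glucose transporter, by 4.83 ± 0.20 on the log2 scale (adjusted p 1.97e-06 and 2.08e-07, edgeR). In blood edgeR called 0 of the 16, with 2 higher at an unadjusted p under 0.05; DESeq2 called 0, and limma-voom called 5 higher and 1 lower. Of 10 tested integrated stress response genes 9 were higher and 0 lower in the tumor, with a median of 2.73 (0 lower with DESeq2 or limma-voom as well), and Atf3 rose by 3.72 ± 0.35 (adjusted p 1.80e-05, edgeR). Dissociation stress genes, which rise when tissue is digested, were called higher in 16 of 17 cases, with a median of 2.28. They summed to 5061 to 7411 CPM in healthy blood, 1932 to 5023 CPM in LLC blood and 13231 to 15671 CPM in LLC tumor. The highest sum in each group was that of replicate 1. Dusp1 and Zfp36 belong both to that list and to the induced genes. Dnajb1 is shared by the dissociation and chaperone lists, and Atf3 by the dissociation and integrated stress response lists. The part of tissue handling in the chaperone rise was not tested. The part of each of these programs in the rise of Sgk1, Errfi1, Ddit4 and Klf9 was not tested.

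RNA of tumor and stromal cells rose with the same genes. Of all genes tested, 29.6% were called higher and 31.7% lower from LLC blood to tumor. LLC tumor cell markers summed to 2.18 to 6.08 CPM in LLC blood and 136 to 348 CPM in LLC tumor, with 5 of 5 tested called higher and Cldn4 at 0 in all tumor libraries. Fibroblast markers summed to 3.74 to 434 CPM and 941 to 3949 CPM, with 4 of 8 called higher and none at 0 throughout, and endothelial markers to 17.6 to 20.5 CPM and 55.9 to 72.3 CPM, with 3 of 4 tested called higher, Vwf lower and none at 0 throughout the tumor libraries. Within the tumor group, LLC tumor 1 had the lowest fibroblast and tumor cell sums (941 and 136 CPM) and the highest Sgk1, Errfi1 and Klf9 (791, 441 and 19.0 CPM). It had the lowest Ddit4 and Fkbp5 (160 and 36.5 CPM). After TMM scaling it was still lowest but closer to LLC tumor 2 and 3. Ddit4 was then at 200 against 211 and 222 CPM, and Fkbp5 at 45.7 against 46.7 and 51.1 CPM. Among the LLC blood libraries, LLC blood 1 held the fibroblast sum of 434 CPM against 3.74 and 4.59 CPM, while its Errfi1 was 9.37 CPM against 8.44 and 9.51 CPM. The part of these cells in the tumor differences was not tested.

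Across the whole span from healthy blood to LLC tumor, 7 of 8 genes were called, against 66.5% of all genes. Higher were 6, against 33.5% of all genes, and lower was Tsc22d3, against 33.0%. Groups did not overlap for 6 of the 8, against 70.6% of all genes. Errfi1 was 40.8-fold, Sgk1 6.14-fold, Ddit4 4.18-fold and Klf9 2.19-fold higher in tumor than in healthy blood (adjusted p 1.12e-07, 0.000172, 7.31e-05 and 0.00281, edgeR). Without LLC tumor 1 the log2 fold change of Sgk1 was 1.95 in place of 2.62. This comparison shares its tumor libraries with the step from LLC blood, so the values are given side by side only.

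Within groups the members did not all follow one library, a count made after the values were seen. In healthy blood, replicate 1 was highest for 6 of the 8 genes, where 36.9% of all tested genes were highest in that library, and Tsc22d3 there was 2.01-fold above its lowest library. In LLC blood, replicate 1 was highest for 4 of 8, against 38.3% of all tested genes. In LLC tumor, replicate 1 was highest for 5 of 8, against 21.1% of all tested genes. Replicate 1 also had the highest sum of dissociation stress genes in each group (7411, 5023 and 15671 CPM). Whether that bears on the members was not tested. Genes with the most similar levels over the 9 libraries were sought among the 8510 genes that averaged 10 CPM or more, by the Pearson correlation of log2(CPM + 1). The libraries form groups of 3 that share source and processing, so these values describe the group pattern. For Errfi1 they were Cxcl1 and Mmp13 (both r = 0.999) with 622 genes above 0.95. For Sgk1 they were Spty2d1 (0.996) and Zbtb21 (0.994), for Ddit4 Plekhn1 (0.985) and Slc25a1 (0.981), for Klf9 Hist1h1c (0.971) and Zswim4 (0.965). For Tsc22d3 they were Mitd1 (0.990) and Commd7 (0.987), and for Anxa1 Fam126b (0.994) and Tbcel (0.993). For Nr3c1 no gene exceeded 0.95, with Cacul1 (0.933) and Klhl2 (0.932) nearest, and for Fkbp5 the nearest were Slc25a3 (0.924) and Atp5d (0.889).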

How the data were processed

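RNA-seq of 9 libraries, 3 per group, was analysed. The submitters' processing notes name Trim Galore 0.6.4, 0.6.6 and 0.6.7, cutadapt 3.4, STAR 2.6.1d, Salmon 1.9.0 and edgeR, with mm10. They also name BWA 0.7.17-r1188 and Bowtie2 2.4.4. The notes give no role or order, so which of these handled the RNA-seq reads is not stated. The authors deposited estimated counts per gene, of which 7.12 to 8.05% per library are not whole (by 0.02 or more), and a table of CPM for 10693 genes. The deposited CPM values turned back into whole reads for 100% of values (tolerance 0.02). Blood columns carry the letters BM and were matched to samples by title and description. Columns of other samples numbered 0. In 27 entries a date stands in place of the symbol.

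Counts were rounded and tested with edgeR 4.0.16 (R 4.3.3; TMM, filterByExpr, quasi-likelihood test, all 9 libraries, group as the only term, Benjamini-Hochberg over 12337 genes, threshold 0.05). DESeq2 1.42.0, limma-voom 3.58.1, other scalings, leaving out each library and a replicate block were alternatives. The method was also run on simulated counts with genes changed in LLC blood only, which does not cover the tumor comparisons. SE is the fold change divided by the root of F. A value of 3 counts in every library of a group is the floor. Same-numbered libraries did not consistently deviate together, so numbers were not used as pairs. No pair of libraries agreed within sampling noise.

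The members and the gene lists were chosen with earlier results of these data known. Besides the 8 members, the rule for named genes took from each list at most the 4 tested genes per comparison with the largest change among those called with a mean of at least 10 CPM, receptors or direct partners of members (such as Nr3c2, Hsp90aa1, Hsd11b1, Fpr1, Fpr2, Tsc22d4, Sgk3, Per1 and Dusp1), the sort markers, and for each member the 2 genes of highest correlation. The neutrophil gene Ly6g was not used here. Library totals set the precision, and limits given from counts cover counting error only.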

Additional observations from a re-analysis of the deposited data

How the results depend on the processing

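Over 24 pairs of a member and a comparison and 19 alternatives (456 values), 424 kept their direction and side of the threshold, 20 lost a call, 6 gained one and 6 reversed, all 6 in values that were not called. Among 65 pairs for other named genes, 51 kept both under all 19. The reversals were Nr3c1 in blood with upper-quartile factors (-0.0038), without LLC blood 3 (-0.0074) and without LLC tumor 1 (-0.0028), Klf9 in blood without healthy blood 1 (0.23) and without LLC blood 2 (0.05), and Anxa1 from healthy blood to tumor without LLC tumor 1 (0.0031). Leaving out 1 library gave -0.0074 to 0.10 for Nr3c1 and -0.12 to 0.0031 for Anxa1; the cause was not tested. In blood 2917 genes were called, against 5884 with limma-voom and 4889 in the fit of only the 6 libraries compared. An adjusted p under 0.01 left 1386 and a log2 fold change of 1 or more in size left 769. Leaving out 1 library gave 1494 (without LLC blood 2) to 5064 genes (without LLC tumor 1). Of the 2 members called in blood, an adjusted p under 0.01 kept 1 and a log2 fold change of at least 1 kept 1, and leaving out 1 library gave 1 (without LLC blood 2) to 4 (without LLC tumor 1, which added Tsc22d3 and Errfi1). With a log2 fold change of at least 1, 3538 of 7566 genes and 5 of 8 members remained from LLC blood to tumor, and 3989 of 8208 genes from healthy blood to tumor. Higher genes made up 59.4% of calls in blood and 46.3% with upper-quartile factors. From LLC blood to tumor they made up 48.3%, and 36.3% with library totals only, which moved the median of all genes to -0.23, and from healthy blood to tumor 50.4% and 40.6% (median -0.17; -0.10 with upper-quartile factors). Replicate numbers were not used as pairs. Same-numbered deviations correlated at 0.30, 0.16 and 0.05 between the blood groups and at -0.01, 0.15 and -0.10 between LLC blood and tumor. Different-numbered ones ran from -0.31 to 0.19 between the blood groups, where LLC blood 2 correlated best with healthy blood 3 (0.19). With 3 libraries per group, these values cannot show whether same-numbered libraries share a mouse or processing. In blood the replicate block over 9 libraries gave 2788 calls, and the block over the 6 blood libraries gave 4820 calls and 4 members, with Fkbp5 and Sgk1 added. Under a block over the 6 LLC blood and tumor libraries the Nr3c1 call from LLC blood to tumor was lost (0.33, adjusted p 0.0593). Depth limits Nr3c2 and Hbegf in blood, which lie at or near 3 counts.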
